A study of Mus musculus with 2 samples.

Results

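Double-negative T cells with natural killer (NK) receptors carry the T-cell antigen receptor complex but neither the CD4 nor the CD8 co-receptor. In this mouse spleen single-cell RNA data set they were chosen by transcripts alone. A cell had to hold at least 1 molecule of Cd3d, Cd3e or Cd3g, at least 1 molecule of Ccl5, Klra7 or Klre1, and 0 molecules of Cd4, Cd8a, Cd8b1, Trdc, Zbtb16, Klrb1c and Cd79a. The rule was met by 188 of 15278 kept cells with a Cd3 molecule (1.23%, 95% exact binomial interval 1.06 to 1.42). The class name is rebuilt from RNA and not from antibodies, so a missing molecule of Cd4, Cd8a or Cd8b1 can be a molecule that was not captured. The choice used measured values, so the genes of the rule and the 5 markers of the class (Klra7, Klre1, Klra6, Ccl5 and Fcer1g) are described here without a test.

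The study injected female C57/BL6N mice with saline or with 6 mg/kg remimazolam, a short-acting benzodiazepine that acts on GABA(A) receptors, and collected spleens. The groups were saline (time 0 h), remimazolam 4 h and remimazolam 8 h, with 3 mice pooled in each under 1 sample tag, and all 3 pools shared 1 capture. There was no saline group at 4 h or 8 h, so drug, time after injection and handling cannot be told apart, and 1 pool per treatment gives no test between treatments. The labels describe the sort as CD45+CD3+CD5+ in one place and as CD45+ in another. The kept cells numbered 5267, 5433 and 5423 in saline, 4 h and 8 h, with 14332312, 14874247 and 14784871 molecules, and no cell barcode occurred in more than 1 pool. Intervals here cover counting error only, since they do not hold the variation between mice. Those of gene levels count each molecule on its own, although molecules cluster in cells, so they do not hold the variation between cells either.

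Most conventional T cells read MHC molecules through an alpha-beta receptor with CD4 or CD8. NK receptors of the Klra (Ly49), Klrc, Klrd and Klrk families are C-type lectin-like proteins that read MHC class I and related ligands. Inhibitory members signal through phosphatases, and activating members depend on adapter proteins such as Tyrobp (DAP12), Hcst (DAP10) and Fcer1g (the common Fc receptor gamma chain). In mouse spleen these receptors are best known from NK cells, NKT cells, gamma-delta T cells and memory-like CD8+ T cells.

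Among the genes that admitted cells, Ccl5, a chemokine of memory and cytotoxic lymphocytes, dominated. It was found in 185 of the 188 cells, with a median of 7 and a maximum of 62 molecules per positive cell. Ccl5 alone admitted 135 cells, Ccl5 together with Klra7 or Klre1 marked 50, and 3 carried Klra7 or Klre1 without Ccl5. Klra7, which encodes the inhibitory receptor Ly49G, was found in 43 cells with up to 10 molecules. Klre1, a lectin-like receptor of NK and T cells, was found in 26 cells with up to 9 molecules, and 16 cells held both. Klra6 (Ly49F), a class marker that the rule did not use, was found in 31 cells, of which 15 also held Klra7.

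The thresholds are sharp, and single molecules decided many cells. Just inside, 34 cells were admitted by 1 molecule of Ccl5 with no Klra7 or Klre1, and 4 of them (11.8%) held Fcer1g. Just outside, 146 cells failed by exactly 1 molecule of 1 excluded gene, of which Cd4 kept out 64, Cd8a 28, Klrb1c 27 and Cd8b1 14; Fcer1g was found in 27 of the 146 (18.5%). Authors' multiplet calls were left out and no further doublet caller was run, so doublets within a tag were not detected. Of 1045 called multiplets with a Cd3 molecule, 8 met the rule (0.766%), and 5 of the 188 cells lay above the 97th percentile of molecules.

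The genes lie as follows in GRCm38. Klra7 (chr6:130218605-130233322, minus strand) and Klra6 (chr6:130013033-130026954, minus strand) lie in the NK gene complex with Klre1 (chr6:129577905-129585827, plus strand). Ccl5 lies at chr11:83525778-83530518 and Fcer1g at chr1:171229572-171234365, both on the minus strand. The promoter windows of Klra7 and Klra6 are shown because both genes mark the class, were found together in cells, and belong to one family. Each window runs from 250 bases before to 50 bases after a gene start in RefSeq (GRCm38.p6), chr6:130233273-130233572 for Klra7 and chr6:130026905-130027204 for Klra6, written 5′ to 3′ on the gene's strand. Capitals mark the bases that differ or have no partner when the windows are aligned; 221 of 270 aligned bases were identical (81.9%).
Klra7: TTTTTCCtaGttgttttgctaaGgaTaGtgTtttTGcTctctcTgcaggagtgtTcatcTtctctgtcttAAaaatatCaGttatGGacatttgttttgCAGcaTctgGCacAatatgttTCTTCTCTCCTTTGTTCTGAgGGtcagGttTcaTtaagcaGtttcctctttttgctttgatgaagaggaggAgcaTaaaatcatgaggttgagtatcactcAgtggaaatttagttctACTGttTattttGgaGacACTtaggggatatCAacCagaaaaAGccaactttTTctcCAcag
Klra6: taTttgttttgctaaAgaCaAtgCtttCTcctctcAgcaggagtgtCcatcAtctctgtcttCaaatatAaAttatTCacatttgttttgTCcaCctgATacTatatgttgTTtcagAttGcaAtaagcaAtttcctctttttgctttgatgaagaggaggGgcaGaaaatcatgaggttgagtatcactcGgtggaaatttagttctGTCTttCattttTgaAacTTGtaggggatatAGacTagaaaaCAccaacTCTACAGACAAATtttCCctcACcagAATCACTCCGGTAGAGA
The longest annotated transcripts of the pair were 80.1% identical, those of Klra7 and Klra1 88.5%, those of Klra6 and Klra9 90.9% and those of Klra9 and Klra3 96.2%. Counts of single Klra genes are uncertain to the extent that the counting divided reads between such copies.

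The label was set beside receptors that the rule did not use, among them the class marker Klra6. Among 20 NK-receptor genes of the Klr families and Ncr1, leaving out Klra7 and Klre1, at least 1 molecule was found in 126 of 188 double-negative cells (67.0%, 59.8 to 73.7), with at least 2 of the genes in 85 cells and up to 8 in 1 cell. The same share was 74.3% in the Cd8a/Cd8b1 gate, 64.6% in the Klrb1c/Zbtb16 gate and 43.6% in the Trdc gate. It was 8.06% in naive CD4 cells (Cd4 and Ccr7, no Foxp3) and 1.53% in B cells, which should lack most of these receptors. The Cd8a/Cd8b1 gate held 738 cells with the same entry genes and a Cd8a or Cd8b1 molecule. The Klrb1c/Zbtb16 gate held 223 T cells with either gene, as in NKT cells, and the Trdc gate 259 T cells with the delta receptor constant gene. Neither required Ccl5, Klra7 or Klre1. The Klrb1c/Zbtb16 gate, unlike the other gates and the double-negative class, allowed Cd4. Median molecules per cell were 2584 in double-negative cells, 3532 in the Cd8a/Cd8b1 gate, 2741 in the Klrb1c/Zbtb16 gate, 2373 in the Trdc gate, 2503 in naive CD4 cells and 2180 in B cells. Any of 8 other Klra genes, including Klra6, was found in 34.6% of double-negative cells (27.8 to 41.8), against 19.4% in the Cd8a/Cd8b1 gate and 0.403% in naive CD4 cells. Klra6 marks the class, and transcripts such as Klra1 are close copies of the entry gene Klra7 (88.5% identical). These shares are therefore a description and no independent check of the label.

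The adapter gene Fcer1g, a class marker, was found in 60 of 188 double-negative cells (31.9%, 25.3 to 39.1), against 3.79% in the Cd8a/Cd8b1 gate, 15.7% in the Klrb1c/Zbtb16 gate, 3.09% in the Trdc gate, 0.604% in naive CD4 cells and 0.255% in B cells. With each cell thinned to 1500 molecules, leaving out 11 double-negative cells, the shares were 27.7%, 2.75%, 11.01% and 2.91% in the first 4 of those classes. Tyrobp, another adapter of activating receptors, was found in 12 double-negative cells (6.38%), a share below the 7.91% in B cells and above the 0.282% in naive CD4 cells. By pool (saline, 4 h and 8 h), Tyrobp was found in 0, 3 and 1 cells of the Cd8a/Cd8b1 gate. In the Trdc gate it was found in 0, 4 and 0 cells. Klra6 was found in 16.5% of double-negative cells and 11.1% of the Cd8a/Cd8b1 gate, with overlapping intervals (11.5 to 22.6 and 8.94 to 13.6). Ncr1, which encodes the NK-cell receptor NKp46, was found in 0 of 188 double-negative cells; by the floor of 3 counts this allows a share of cells with a molecule of up to 1.60%.

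**Figure D1:**
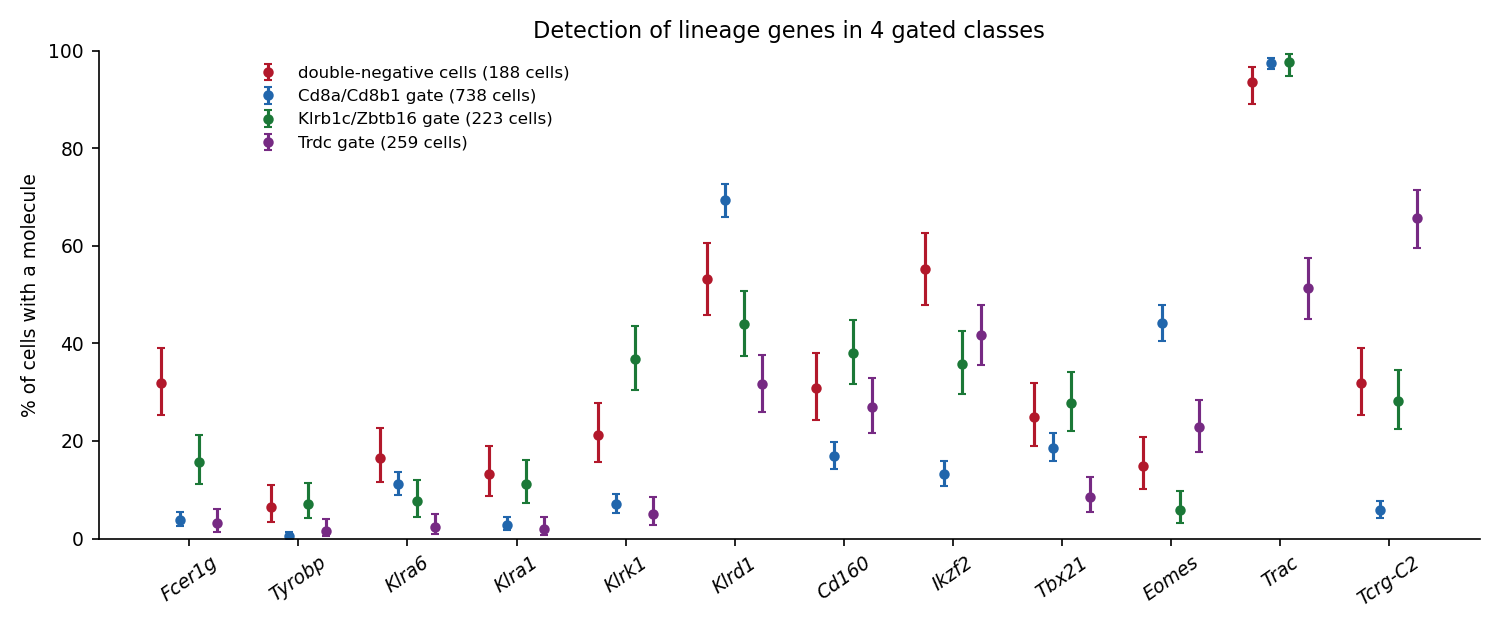
Percent of cells with at least 1 molecule of each gene (y axis) in double-negative cells, the Cd8a/Cd8b1 gate, the Klrb1c/Zbtb16 gate and the Trdc gate; points are shares and bars 95% exact binomial intervals. Fcer1g stands at 31.9% in double-negative cells, above the intervals of the other 3 classes, and Trac at 93.6%.

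Genes of other cell types were summed as a check. The 7 NK genes summed to 754, 662 and 714 CPM (molecules scaled to a common class total) in double-negative cells of saline, 4 h and 8 h, against 60.9, 62.0 and 60.5 in other T cells, with Ncr1 and Klrb1c at 0 (Klrb1c by the rule). Without the class marker Fcer1g, which gave 40 of 83, 68 of 135 and 50 of 126 of those molecules, the other genes summed to 390.5, 329 and 431 CPM, against 51.7, 52.3 and 52.3 CPM. The 6 B-cell genes summed to 463, 373 and 425 CPM, against 445, 686 and 750 CPM in other T cells, with Cd79a and Ms4a1 at 0 in each pool. The 6 myeloid genes summed to 109, 226 and 136 CPM, against 94.2, 108 and 95.2 CPM, with Csf1r and Adgre1 at 0 in each pool. The neutrophil genes reached at most 14.7 CPM and the hemoglobin genes at most 4.91 CPM. Lists of other T-cell types also stood above other T cells. The 5 gamma-delta genes summed to 854, 608 and 357 CPM, against 174, 213 and 157 CPM, with Trdc (by the rule) and Sox13 at 0. The 4 NKT or MAIT genes summed to 291, 339 and 567 CPM, against 182, 217 and 191 CPM, with Zbtb16 and Klrb1c at 0 by the rule. The 3 regulatory T-cell genes summed to 808, 844 and 765 CPM, against 218, 233 and 232 CPM; without Ikzf2 the sums were 36.3, 177 and 210 CPM, against 105, 114 and 111 CPM, with Foxp3 at 0 in saline. The part of these sums in the results below was not tested.

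Most double-negative cells held transcripts of the alpha constant gene, and part of them held gamma transcripts. The receptor type of a cell was not measured. Trac, the alpha constant gene, was found in 176 of 188 double-negative cells (93.6%, 89.1 to 96.7), against 97.6% in the Cd8a/Cd8b1 gate, 51.4% in the Trdc gate and 11.99% in B cells. Tcrg-C2, a gamma constant gene, was found in 60 cells (31.9%), against 5.83% in the Cd8a/Cd8b1 gate, 28.3% in the Klrb1c/Zbtb16 gate, 65.6% in the Trdc gate and 0.524% in naive CD4 cells. Any Tcrg-C gene was found in 78 double-negative cells, and Trdc was at 0 by the rule.

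Genes detected beside the receptors differed by the gene that admitted the cell. Among the 53 cells with Klra7 or Klre1, 34 held Fcer1g (64.2%, 49.8 to 76.9), against 22 of 101 cells admitted by 2 or more Ccl5 molecules alone (21.8%, 14.2 to 31.1). Median molecules were 2696 and 2487 in those classes and 2515 in the 34 cells admitted by a single Ccl5 molecule. Klrd1, which encodes CD94, the partner of the NKG2 receptors, was found in 81.1%, 53.5% and 8.82% of the 3 classes. Ly6c2, a surface protein of memory-type T cells, was found in 79.2%, 56.4% and 11.8%. Id2, Cxcr6 and Rora ran the other way. Id2, a repressor of E proteins that innate-like lymphocytes need, was found in 30.2% of the Klra7 or Klre1 class and 61.4% of the class with 2 or more Ccl5 molecules, and the chemokine receptor Cxcr6 in 18.9% and 39.6%. The nuclear receptor Rora was found in 1 of 53 cells (1.89%) and 26.7%.

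The cells admitted by a single Ccl5 molecule held few NK receptors. Any of the 20 receptor genes was found in 6 of 34 of them (17.6%, 6.76 to 34.5), against 94.3% of the Klra7 or Klre1 class and 69.3% of the class with 2 or more Ccl5 molecules. For most of these 34 cells no NK receptor was detectable at this depth. Zbtb7b, which encodes ThPOK, the factor of the CD4 lineage, was found in 38.2% of the single-molecule class, against 43.8% of 160 Cd4-positive cells with the same entry genes. Foxp3, the factor of regulatory T cells, was found in 20.6% and 13.8% of those classes, and in 0 of 53 cells with Klra7 or Klre1, where the same floor allows up to 5.66% of cells with a molecule.

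**Figure D2:**
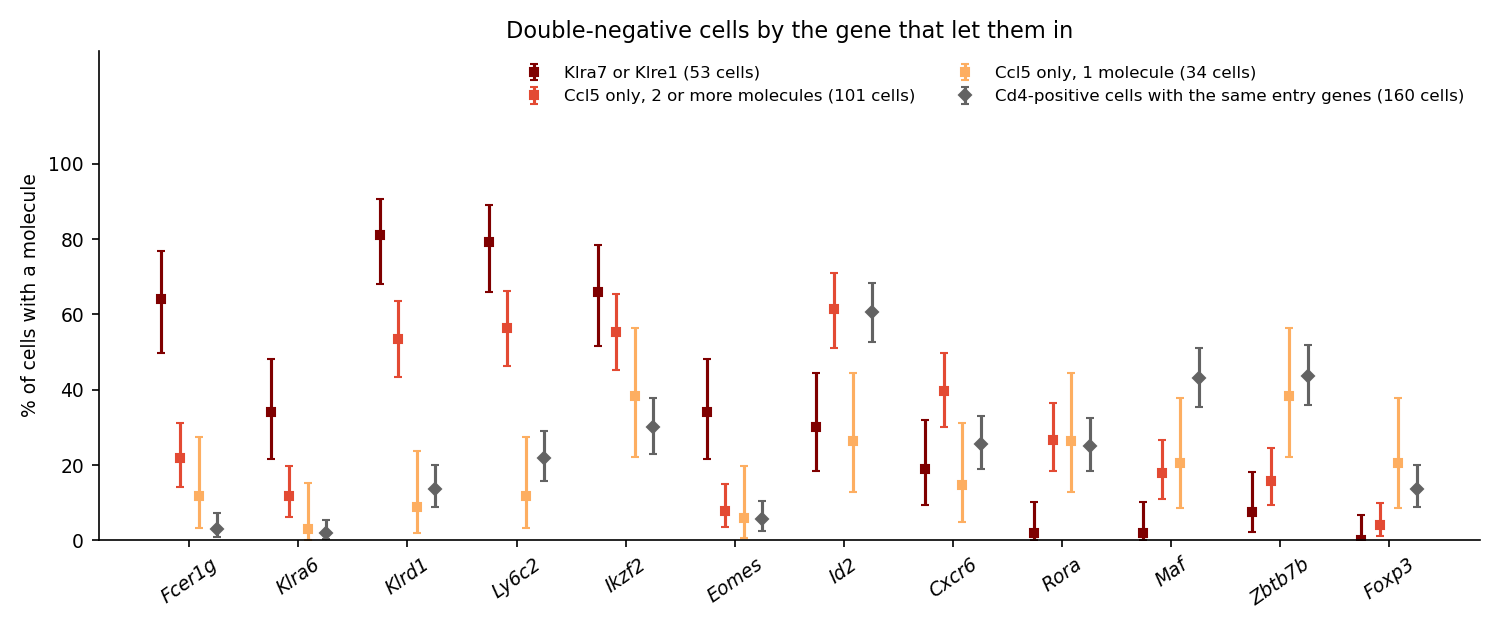
Percent of cells with at least 1 molecule of each gene (y axis) by the gene that admitted the cell, with Cd4-positive cells of the same entry genes beside them; bars are 95% exact binomial intervals. Fcer1g, Klra6, Klrd1 and Ly6c2 are highest with Klra7 or Klre1, and Zbtb7b and Foxp3 are highest in the single-molecule and Cd4-positive cells.

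Shares of other genes also went with Fcer1g. Ikzf2, which encodes the transcription factor Helios, was found in 78.3% of the 60 double-negative cells with Fcer1g and in 44.5% of the 128 without. Cd7, an immunoglobulin-family receptor of T and NK cells, was found in 86.7% and 46.9% of them, and Klrd1 in 83.3% and 39.1%. Between double-negative cells with a Tcrg-C molecule and those without, the shares were 32.1% and 5.45% for Klra6, 79.5% and 45.5% for Cd7, and 0% and 10.0% for Foxp3. These are shares of cells from 3 pools, given as a description.

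Molecules were summed per class and pool and compared with edgeR's quasi-likelihood test over 4649 genes, with pool as a term and Benjamini-Hochberg adjustment. Levels are CPM in saline, 4 h and 8 h; log2 changes use TMM scaling. The 4 classes were fitted together, with the spread of each gene estimated over all 12 sums. The p-values measure how far class differences vary across 3 pools of different treatment, each of 3 mice. The 13 genes that define the gates, with Klra6 and Fcer1g, were not tested.

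Double-negative cells had more transcript of Ikzf2, which encodes Helios, of 7 of 10 tested NK receptors and of 4 gamma receptor genes than the Cd8a/Cd8b1 gate, and less of the ribosomal protein genes, Il6ra and Eomes. In all, 163 genes were higher (3.51% of those tested) and 196 lower (4.22%). Higher calls numbered 121 without the saline pool, 90 without 4 h and 94 without 8 h, 94 with DESeq2, and 30 when both classes were limited to cells with Klra7 or Klre1. Lower calls numbered 61 under that limit. The median change over all genes tested was 0.01 on the log2 scale.

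Of 23 further NK-receptor genes, 10 passed the filter on low counts, 7 were higher and none lower, with a median of 1.53 on the log2 scale. Klrk1, the activating receptor NKG2D, had 172.5, 186 and 244 CPM in double-negative cells, against 31.2, 34 and 37.4 CPM in the Cd8a/Cd8b1 gate (log2 change 2.39, SE 0.25, edgeR adjusted p = 1.22e-11). Cd160, a receptor for HVEM and MHC class I, had 281.5, 211 and 232 CPM against 65.9, 86.1 and 65.7 CPM (1.54, SE 0.20, edgeR adjusted p = 2.04e-08). Neither overlapped between the classes. Klra1 (Ly49A) had 163, 191 and 90.7 CPM against 28.8, 25.5 and 16.2 CPM (2.52, SE 0.31, edgeR adjusted p = 2.13e-09). Klra1 was at 0.91 (edgeR adjusted p = 0.454) between cells with Klra7 or Klre1 in both classes. The other 4 called receptors were Slamf7 (0.91), Klrd1 (0.56), Klrc2 (1.52) and Klra9 (2.39). Under the same limit each missed the threshold, at 0.24, 0.55, 1.28 and 1.84. Klrd1 missed it without the saline pool (0.42) and without the Tcrg-C cells (0.09), Klrc2 without the 8 h pool (1.10), and Klra9 without the 4 h pool (0.90) and with DESeq2 (2.28).

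Among 25 transcription factors, 20 were tested, 9 were higher and 1 was lower. Ikzf2 had 772, 667 and 556 CPM in double-negative cells, against 79.1, 112 and 75.8 CPM in the Cd8a/Cd8b1 gate (2.73, SE 0.17, edgeR adjusted p = 1.14e-20). The gap held between cells with Klra7 or Klre1 alone (1.89, edgeR adjusted p = 4.44e-05). Id2 had 726, 972 and 1043 CPM against 143, 159 and 157 CPM (2.44, SE 0.13, edgeR adjusted p = 5.56e-24), with no overlap. Maf and Zbtb7b, factors of helper T cells, were higher by 4.53 and 3.33, and Rora by 2.73. Between cells with Klra7 or Klre1 these 4 were not called, at 0.65 for Id2, 1.65 for Maf, 1.32 for Zbtb7b and -1.78 for Rora. Eomes, a factor of memory CD8+ T cells, had 109, 73.6 and 125 CPM against 246, 226 and 305 CPM (-1.51, SE 0.26, edgeR adjusted p = 1.12e-05). It was not called with DESeq2 (-1.50, adjusted p = 0.504) or between cells with Klra7 or Klre1 (-0.76).

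The genes of signalling, secretion and homing divided. Il2rb, the beta chain shared by the IL-2 and IL-15 receptors, had 1634, 1222 and 1497 CPM in double-negative cells, against 689, 693 and 738 CPM in the Cd8a/Cd8b1 gate (0.87, SE 0.10, edgeR adjusted p = 3.94e-10). Xcl1, a chemokine that draws cross-presenting dendritic cells, had 154, 319 and 210 CPM against 67.1, 62.7 and 93.9 CPM (1.51, SE 0.22, edgeR adjusted p = 1.27e-07). Spry2, an inhibitor of growth-factor signalling, had 109, 157 and 85.0 CPM against 9.59, 13.8 and 6.06 CPM (3.44, SE 0.38, edgeR adjusted p = 1.35e-10). None of the 3 overlapped. Il6ra, the IL-6 receptor, had 27.2, 78.5 and 79.4 CPM against 205, 205 and 194 CPM (-1.72, SE 0.27, edgeR adjusted p = 9.91e-07), also with no overlap. Of 24 homing and adhesion genes, 18 were tested, 7 were higher and 4 lower. Itga4, an integrin alpha chain, was higher (1.28). Ccr2, called higher with overlapping pools (1.00), was at -4.11 between cells with Klra7 or Klre1 and at 0.08 without the 8 h pool.

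Of 12 cytotoxic granule and death genes, 9 were tested, with Srgn, a granule proteoglycan, higher (0.60) and the protease Gzma lower (-1.23). Gzma lay in 2, 1 and 2 double-negative cells and in 8, 8 and 14 cells of the Cd8a/Cd8b1 gate. Its pools overlapped, with 118 against 116 CPM in saline. Srgn was not called without the 4 h pool (0.32), Gzma was not called without it (-0.70), and neither was called between cells with Klra7 or Klre1 (0.23 and 0.17). Nkg7 had 608, 652 and 777 CPM in double-negative cells, against 677, 694 and 752 CPM in the Cd8a/Cd8b1 gate, and the groups overlapped (-0.21, edgeR adjusted p = 0.365). All 4 tested gamma receptor genes were higher, Tcrg-C2 by 2.95 and Tcrg-C4 by 3.06, while Trac was at 0.08 (edgeR adjusted p = 0.774). Of the 85 tested ribosomal protein genes, 78 were lower and none higher, with a median of -0.65 on the log2 scale. Ribosomal protein genes took 13.7%, 12.5% and 13.2% of molecules in double-negative cells of saline, 4 h and 8 h, against 19.0%, 19.1% and 18.6% in the Cd8a/Cd8b1 gate. Between cells with Klra7 or Klre1, 35 were lower (median -0.43). The higher median of molecules per cell in the Cd8a/Cd8b1 gate, given above, moved with these differences, and its part was not tested.

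**Figure D3:**
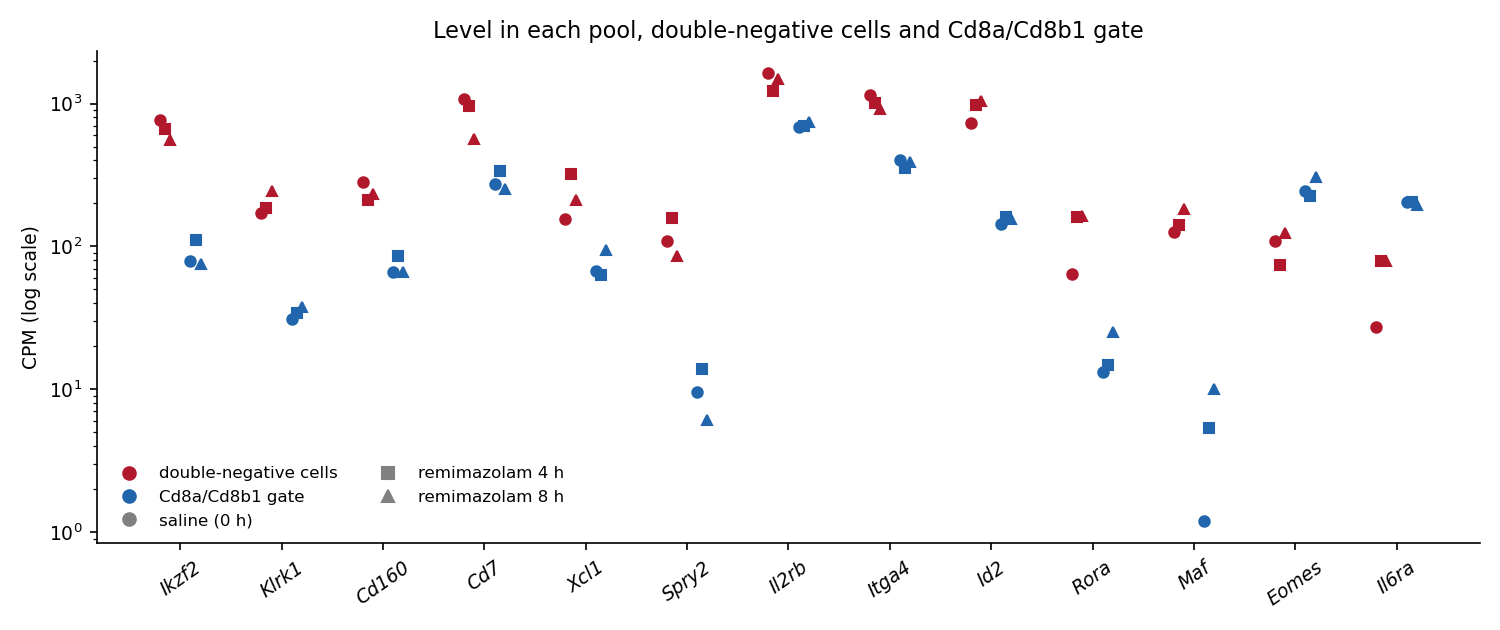
Level of 13 genes in CPM on a log axis, with 1 point per class and pool; red is double-negative cells, blue the Cd8a/Cd8b1 gate, and the shape gives the pool. Ikzf2 to Maf lie higher in all 3 double-negative pools, and Eomes and Il6ra lie lower.

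Against the Klrb1c/Zbtb16 gate, double-negative cells had more transcript of Klf2, Itga4 and Tcf7 and less of Id2, Cxcr6, Ccr2 and Icos. Higher calls numbered 70 (1.51%) and lower calls 69 (1.48%). The Klrb1c/Zbtb16 gate allowed Cd4-positive cells and did not require Ccl5, Klra7 or Klre1. The part of these gate differences in the calls was not tested. Klf2, a factor that drives the egress receptor S1pr1, had 663, 481 and 539 CPM in double-negative cells, against 231, 171 and 257 CPM in the Klrb1c/Zbtb16 gate (1.36, SE 0.17, edgeR adjusted p = 3.24e-08). The integrin gene Itga4 was higher by 1.53, the cytoskeletal gene Actn1 by 2.34, and the factors Id3 and Tcf7 by 1.96 and 0.84. None of these 5 overlapped between the classes. Id2 had 726, 972 and 1043 CPM against 1686, 2398 and 2228 CPM (-1.18, SE 0.11, edgeR adjusted p = 2.10e-12). The chemokine receptors Cxcr6 and Ccr2 were lower, at -1.58 and -1.62, as were the costimulator Icos (-1.69) and Maf (-1.68), again with no overlap.

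Few NK receptors were called against that gate. Of 10 tested, Klrd1 was higher (0.83) and the adhesion receptor Cd226 lower (-0.94), and the median was -0.13 on the log2 scale. Klrk1 had 172.5, 186 and 244 CPM in double-negative cells, against 225, 283 and 363 CPM in the Klrb1c/Zbtb16 gate, with overlap (-0.53, edgeR adjusted p = 0.207). Ikzf2 was higher by 0.81 and Cd7 by 1.20. Without the Tcrg-C cells Klrd1, Ikzf2 and Cd7 were not called, at 0.38, 0.40 and 0.39, and Ikzf2 was not called without the 4 h pool (0.62). Cd226 was not called without the 4 h pool (-0.64), without the 8 h pool (-0.85) or with DESeq2. Higher calls numbered 29 without the 4 h pool and 44 without 8 h, and lower calls 39, 29 and 32 without saline, 4 h and 8 h in turn.

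Against the Trdc gate, double-negative cells had more transcript of Id2, Cd44 and 4 of 10 tested NK receptors. Higher calls numbered 56 (1.20%) and lower calls 23 (0.495%). Unlike the double-negative class, the Trdc gate did not require Ccl5, Klra7 or Klre1. Ccl5 was found in 31 of its 82 cells in saline, 51 of 101 at 4 h and 26 of 76 at 8 h. The part of this unequal entry in the differences was not tested. The 2 classes were split on Trdc, itself a receptor gene. The tests of Trac and of the gamma genes are therefore no independent support for a difference in receptor type. Trac had 1671, 1889 and 2393 CPM in double-negative cells, against 743, 420 and 815 CPM in the Trdc gate (1.66, SE 0.12, edgeR adjusted p = 1.41e-16). The gamma genes Tcrg-C1, Tcrg-C2 and Tcrg-C4 were lower, at -2.57, -1.34 and -2.48, and Tcrg-C2 was not called with DESeq2 (-1.30). Of 10 tested NK receptors 4 were higher and none lower, namely Klrd1 (1.18), Klrk1 (1.72), Klra1 (2.79) and Klra9 (4.62). Klra9 was not called without the 4 h pool (2.26). The adapter Tyrobp was not called in the main fit (2.47, edgeR adjusted p = 0.293). Id2 had 726, 972 and 1043 CPM against 300, 270 and 312 CPM (1.67, SE 0.14, edgeR adjusted p = 2.61e-14), with no overlap. Cd44, an adhesion receptor, the chemokine receptor Cxcr3, the homeobox gene Hopx and the cytokine receptor Il18r1 were higher by 1.97, 1.68, 1.31 and 1.47, and Xcl1 by 1.83. Several genes called higher against the Cd8a/Cd8b1 gate were not called against the Trdc gate. Among them were Ikzf2 (0.53, edgeR adjusted p = 0.0779) and Spry2 (1.27, edgeR adjusted p = 0.0654). Cd160 was at 0.20, Cd7 at -0.10, Itga4 at 0.08 and Zbtb7b at 0.34. Maf, Rora and Il2rb were called higher here too, at 1.86, 1.39 and 0.96. Smc4, a condensin subunit, had 1108, 1040 and 947 CPM against 2139, 2070 and 2369 CPM (-1.06, SE 0.11, edgeR adjusted p = 7.09e-11), with no overlap. Higher calls numbered 37 without the saline pool and 26 without 8 h.

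Double-negative cells made up a larger share of T cells in the treated pools. The saline pool held 43 (0.858%, interval 0.621 to 1.15), the 4 h pool 75 (1.46%, interval 1.15 to 1.83) and the 8 h pool 70 (1.36%, interval 1.07 to 1.72). Relative to saline the 4 h share was 1.70 times as large (1.16 to 2.54) and the 8 h share 1.59 times (1.07 to 2.38), from 1 pool each. As a share of double-negative and Cd8a/Cd8b1-gate cells together, double-negative cells stood at 1.46 times (0.991 to 2.18) and 1.36 times (0.917 to 2.04) the saline share, with intervals that include 1. The Cd8a/Cd8b1 gate stood at 1.07 (0.888 to 1.28) and 1.09 (0.910 to 1.31). The Klrb1c/Zbtb16 gate stood at 1.79 (1.27 to 2.54) and 1.27 (0.875 to 1.84), and the Trdc gate at 1.20 and 0.905. Cells that met every exclusion but held no Ccl5, Klra7 or Klre1 stood at 0.930 and 0.942. Cd4-positive cells with the same entry genes stood at 1.27 (0.840 to 1.94) and 1.39 (0.923 to 2.10), with intervals that include 1 and overlap those of the double-negative cells. Median molecules of the double-negative cells were 2598, 2609 and 2439 in saline, 4 h and 8 h.

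By entry gene, the ratios at 4 h and 8 h were 2.05 (0.924 to 4.88) and 2.15 (0.977 to 5.08) for Klra7 or Klre1, with intervals that include 1. They were 1.39 and 1.43 for 2 or more Ccl5 molecules and 2.37 and 1.40 for a single one. Double-negative cells without a Tcrg-C molecule numbered 20, 42 and 48, with ratios of 2.05 (1.18 to 3.69) and 2.34 (1.37 to 4.17). Those with a Tcrg-C molecule numbered 23, 33 and 22, with ratios of 1.40 (0.798 to 2.50) and 0.934 (0.497 to 1.75). Cells with Foxp3 numbered 0, 5 and 6. Without them the 8 h ratio was 1.45 (0.973 to 2.19), and among cells of 2000 or more molecules it was 1.45 (0.919 to 2.31), so that both intervals include 1.

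**Figure D4:**
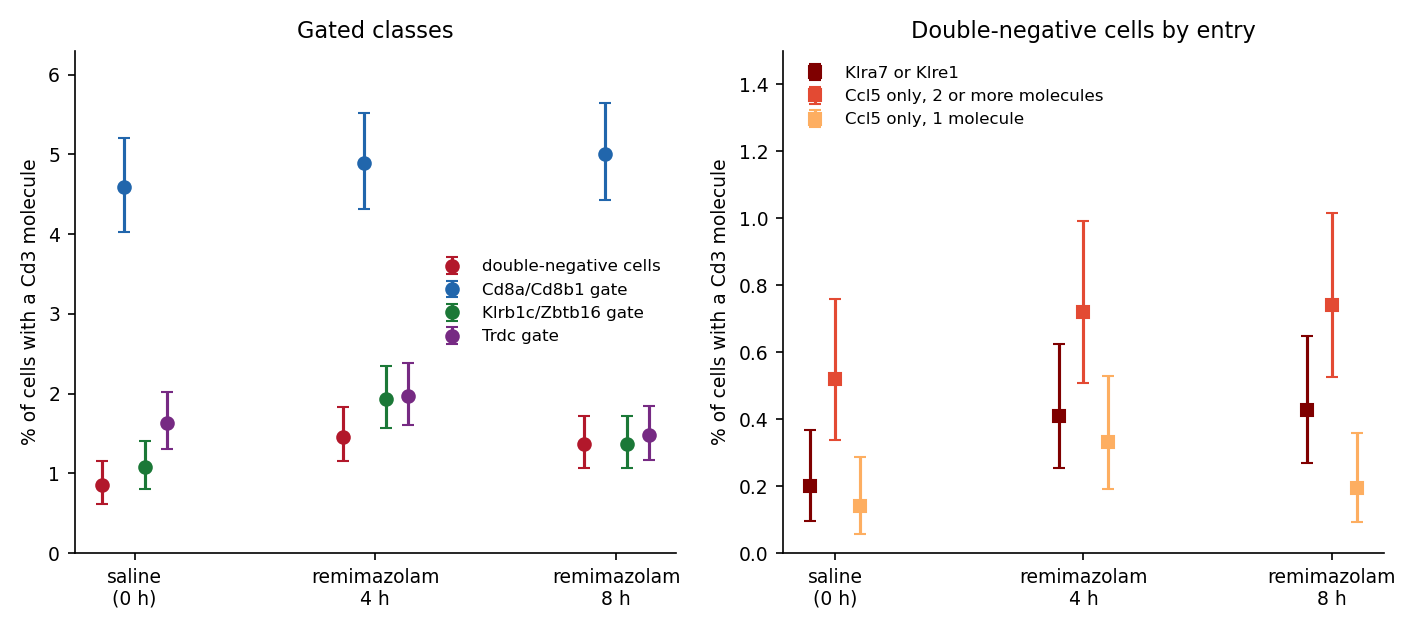
Percent of cells with a Cd3 molecule (y axis) in saline, remimazolam 4 h and remimazolam 8 h, for the 4 gated classes (left) and for double-negative cells by entry gene (right), with 1 pool per point and 95% exact binomial intervals. Double-negative cells lie at 0.858%, 1.46% and 1.36%.

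Within the double-negative class, gene levels were compared between pools by ratio of CPM with a counting interval and no test. Of 3100 genes with 20 or more molecules in the 4 h and saline pools together, 516 were past 1.5-fold higher at 4 h (16.6%) and 342 past 1.5-fold lower (11%). At 8 h, 432 of 2811 were higher (15.4%) and 332 lower (11.8%). Both times share the saline pool.

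The class markers moved unevenly, and the intervals of Klra7, Klre1 and Ccl5 are description only, since these genes admitted the cells. Klra7 stood at 227, 226 and 227 CPM in saline, 4 h and 8 h, with a ratio of 0.994 at 4 h (0.598 to 1.69). Klre1 stood at 54.5, 157 and 204 CPM, from 6 molecules in 1 saline cell, 32 in 13 cells and 36 in 12 cells, with ratios of 2.88 (1.19 to 8.43) and 3.75 (1.56 to 10.9). Ccl5 stood at 4204, 3459 and 3515 CPM, with ratios of 0.823 (0.731 to 0.927) and 0.836 (0.740 to 0.945). The other gates did not all move this way. Ccl5 stood at 1900, 2359 and 2420 CPM in the Cd8a/Cd8b1 gate. It stood at 1819, 1733 and 1672 CPM in the Klrb1c/Zbtb16 gate and at 1825, 2284 and 1554 CPM in the Trdc gate. Fcer1g stood at 363, 334 and 283.5 CPM and Klra6 at 182, 132 and 96.4 CPM, and their intervals at both times include 1.

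Tcrg-C2 was lower in both treated pools, and Trac was higher at 8 h. Of 4 measured gamma receptor genes 1 was past 1.5-fold higher and 1 lower at 4 h, and 2 were lower at 8 h. Beside them, 16.6% of all measured genes were higher and 11% lower at 4 h, and 11.8% were lower at 8 h. Tcrg-C2 stood at 608, 309 and 187 CPM, in 46.5%, 32.0% and 22.9% of double-negative cells, with ratios of 0.508 (0.354 to 0.728) and 0.307 (0.196 to 0.473). In other T cells its ratios were 1.38 and 0.959. Trac stood at 1671, 1889 and 2393 CPM, with ratios of 1.13 (0.946 to 1.36) and 1.43 (1.20 to 1.71). The number of double-negative cells with a Tcrg-C molecule, counted above, moved with these values, and its part was not tested.

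Of 15 measured homing and adhesion genes, 6 were past 1.5-fold higher at 8 h and none lower, with a median of 0.43 on the log2 scale, beside 15.4% of all measured genes past that fold higher. Ccr2, the receptor for monocyte chemoattractants, gave 3, 23 and 46 molecules in 3, 10 and 17 cells, with a ratio of 9.57 at 8 h (3.08 to 48.1). Cxcr6 stood at 209, 221 and 368.5 CPM, with a ratio of 1.77 at 8 h (1.08 to 2.98). Of 20 measured transcription factors, 5 were past 1.5-fold higher at 8 h and 1 lower, beside 15.4% and 11.8% of all measured genes. Rora, one of the 5 higher factors, stood at 63.6, 162 and 164 CPM, with ratios of 2.55 (1.11 to 6.82) and 2.59 (1.11 to 6.995). The ratios of Ccr2, Cxcr6 and Rora at 8 h in other T cells were 1.38, 1.07 and 1.28. The NKT or MAIT list, which in these cells is Cxcr6 and Icos, stood at 291, 339 and 567 CPM, and the gamma-delta list at 854, 608 and 357 CPM; their part in these ratios was not tested. Ly6c2 stood at 2070, 1305 and 1446 CPM, with ratios of 0.630 (0.526 to 0.756) and 0.698 (0.582 to 0.839). Cd7 stood at 1071, 962 and 567 CPM, with a ratio of 0.529 at 8 h (0.401 to 0.697) that was 0.931 among cells with Klra7 or Klre1. Xcl1 was at 2.07 at 4 h (1.20 to 3.76), with 18 of its 65 molecules in 1 cell.

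Over all measured genes, 16.6% were past 1.5-fold higher and 11% lower at 4 h, and 15.4% and 11.8% at 8 h. Of the other lists, NK receptors held 2 genes past 1.5-fold higher and 1 lower of 10 measured at 4 h, and 3 higher and 2 lower of 9 at 8 h. Klra3 (Ly49C) was lower at both times, with 15, 7 and 6 molecules in 7, 5 and 5 cells and ratios of 0.252 (0.0870 to 0.657) and 0.250 (0.0794 to 0.681). Klra9, whose longest transcript is 96.2% identical to that of Klra3, gave 3, 38 and 5 molecules. Whether reads were divided between these copies was not tested. Of the glucocorticoid-response genes 1 was higher and 2 lower of 7 at 4 h, and 0 higher and 1 lower of 8 at 8 h. Zfp36l2, an RNA-decay factor, stood at 1162, 731 and 896 CPM, with ratios of 0.629 (0.493 to 0.803) and 0.771 (0.607 to 0.981), beside 0.807 and 0.781 in other T cells.

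Single cells carried several of the extreme ratios at 4 h. All 44 molecules of Top2a, 42 of 43 of Stmn1 and 24 of 28 of Mki67, genes of dividing cells, came from 1 cell with 7931 molecules, 3034 genes and 1 Ccl5 molecule. Top2a was at least 7.93-fold higher at 4 h than the saline floor of 3 counts, on that 1 cell alone. Another cell held 60 of 66 molecules of Gclc, an enzyme of glutathione synthesis, and 17 of 38 molecules of Klra9 and 17 of 24 of Tnf lay in 1 cell each. Acadl and Npm3 were spread over more cells at 4 h and 8 h. Acadl, an enzyme of fatty-acid oxidation, gave 5, 43 and 20 molecules in 4, 21 and 16 cells, with a ratio of 4.65 at 4 h (1.84 to 15.0). Npm3, a nucleolar chaperone, gave 12, 35 and 53 molecules in 11, 27 and 32 cells, with a ratio of 2.76 at 8 h (1.46 to 5.67). Foxp3 gave 0, 18 and 26 molecules in 0, 5 and 6 cells, at least 5.41-fold higher at 8 h than the saline floor, with 11 of the 26 in 1 cell.

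**Figure D5:**
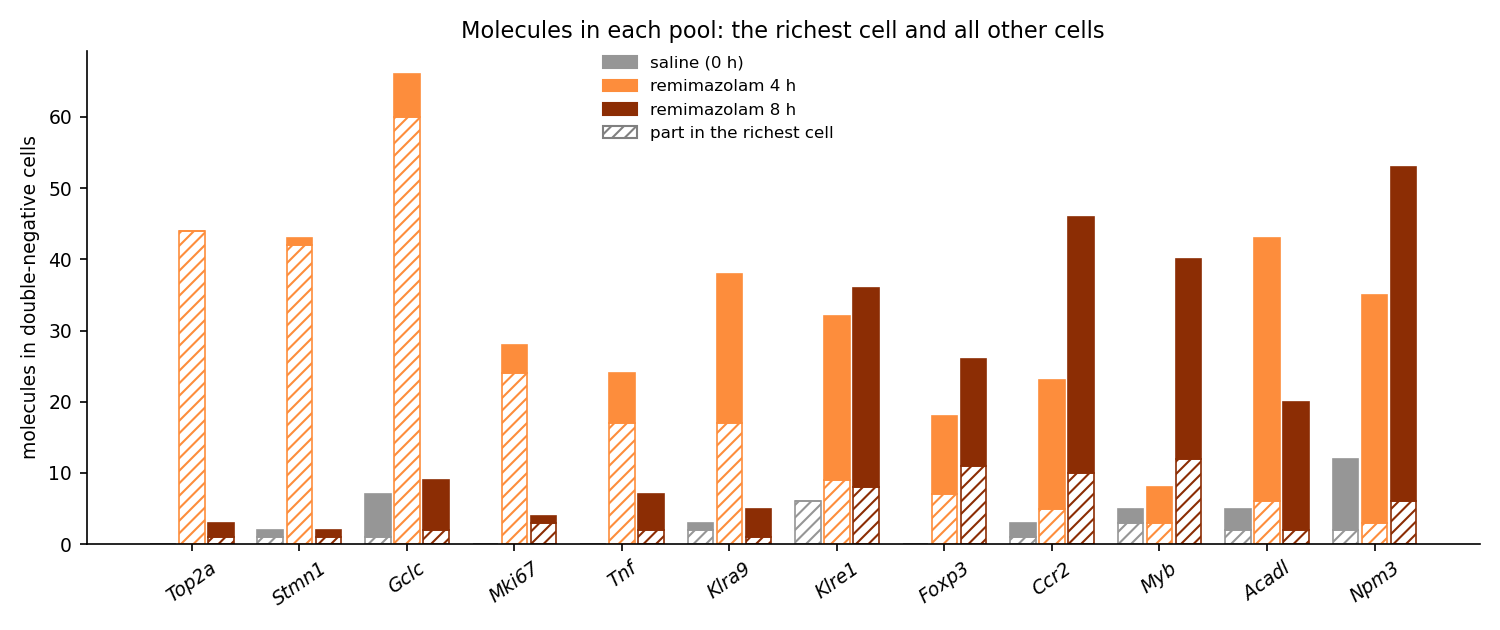
Molecules of 12 genes in double-negative cells of saline, remimazolam 4 h and remimazolam 8 h (y axis), with the hatched part of each bar in the single richest cell. All 44 Top2a molecules at 4 h lie in 1 cell, while Acadl, Npm3 and Ccr2 are spread over many.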

How the data were processed

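Single-cell RNA was measured in 1 BD Rhapsody whole-transcriptome capture of spleen cells from 3 sample-tagged pools of mice. The authors deposited raw molecule counts per cell and gene, made with the BD WTA Multiplex Rhapsody Analysis Pipeline 1.9.1 on GRCm38, corrected for molecule errors (RSEC), per the file headers. The aligner was not stated in the labels or headers. The authors' sample-tag calls, also deposited, gave each cell its pool; multiplets (1063 of 17299 cells), 60 undetermined cells and 2 of an unused tag were left out, and tag read counts were not used. Cells kept had at least 200 genes and under 25% mitochondrial molecules.

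The class members, the gates and the gene lists were chosen with earlier results of these data known. Counts were summed per class and pool (12 sums) and tested in R 4.3.3 with edgeR 4.0.16 (TMM, filterByExpr, quasi-likelihood, class plus pool, calls at adjusted p under 0.05) and, as an alternative, DESeq2 1.42.0. The edgeR fit was also run on simulated data, and the DESeq2 fit was not. The pool is a shared batch of the classes and stood in the fit as the block. Exact binomial intervals (scipy 1.17.1) are at 95%, and ratios of pools carry the exact conditional interval. Genes named were the members of the fixed lists, 12 each way by size of change among called genes with 30 or more molecules, and 10 each way by interval bound between pools with 20 or more molecules. Thinned shares drew 1500 molecules per cell. Promoter windows came from RefSeq (GRCm38.p6), and gene positions from GENCODE. Depth in double-negative cells was 110128, 203816 and 176383 molecules in saline, 4 h and 8 h, so that 3 counts stand for 27.2, 14.7 and 17.0 CPM.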

Additional observations from a re-analysis of the deposited data

How the results depend on the processing

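The share ratios kept their direction under the 7 alternatives, between 1.57 and 2.05 at 4 h and between 1.45 and 2.34 at 8 h. Counts past 1.5-fold between pools were 3394 higher and 2503 lower at 4 h and 2951 and 2862 at 8 h with no minimum of molecules together with a prior of 0.5 molecules, and 109 and 80 and then 126 and 89 with entry by Klra7 or Klre1 only; the ratio of Cd7 at 8 h was 0.931 there. Against the Cd8a/Cd8b1 gate, higher calls were 94 with DESeq2, 30 with entry by Klra7 or Klre1 only and 90 to 121 with each pool left out; lower calls were 61 with that entry and 155 to 177 with each pool left out. Against the Klrb1c/Zbtb16 gate, higher calls were 46 without the Tcrg-C cells and 29 to 65 with each pool left out, and lower calls were 36 with DESeq2, 41 without the Tcrg-C cells and 29 to 39 with each pool left out. Against the Trdc gate, higher calls were 34 with DESeq2, 37 without the Tcrg-C cells and 26 to 45 with each pool left out, and lower calls 11 with DESeq2 and 16 to 22 with each pool left out. With entry by Klra7 or Klre1 only, which was run for the Cd8a/Cd8b1 gate, 10 genes changed sign: Ccr2 to -4.11, Ccr9 to -1.02, Cxcr6 to -0.25, Egr1 to -0.71, Gzma to 0.17, Icos to -0.22, Il2ra to -0.039, Itgal to -0.16, P2rx7 to -0.81 and Rora to -1.78; the cause was not tested. Over all named genes and alternatives of the class comparisons, 1138 values kept their direction and call, 266 missed the threshold and 10 changed sign. Without the replicate block (pool term left out), calls were 167 higher and 201 lower against the Cd8a/Cd8b1 gate, 68 and 67 against the Klrb1c/Zbtb16 gate and 51 and 21 against the Trdc gate. With no filter on low counts the median change over all genes against the Cd8a/Cd8b1 gate was -0.13. Leaving out the cells with Tcrg-C or Foxp3 was chosen after seeing the data, and Tcrg-C genes and Foxp3 were not fitted again under their own exclusion. Thinning to 1500 molecules moved 8 of 15 shares beyond their interval. With 3 counts worth up to 27.2 CPM in the saline pool, changes of scarce genes between pools were not detectable at this depth.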
